A study of Mus musculus with 9 samples.

Results

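The genes described here are 10 tissue-restricted basic helix-loop-helix (bHLH) factors of mesoderm and blood, chosen by symbol, with earlier results of these data known, out of 47729 genes with an FPKM value. They are Tcf15, Mesp2, Mesp1 and Msgn1 of the paraxial and early mesoderm, Tal1 and Lyl1 of blood, Msc, Myf5 and Myod1 of muscle, and Scx of tendon. FPKM is the number of fragments on a gene scaled to the length of its exons and to the number mapped in the library, so it can be compared between genes. RNA-seq was done on mouse embryonic stem cells (ESCs) held in LIF/serum, the medium that maintains pluripotency. The cells carry a doxycycline (dox)-inducible construct in which a FLAG-tagged copy of E47, one product of the E2A gene Tcf3, is tethered to another E47 through a flexible linker, so that the product is a forced E2A homodimer. Groups were ESCs without dox (0 h) and ESCs after 18 h or 24 h in 1 µg/ml dox, with 3 replicate libraries each, 9 in all. Every library, the 0 h libraries included, comes from cells that carry the construct, and dox given to cells without it was not analysed here, so an effect of dox itself cannot be told apart from that of the homodimer. None of the libraries comes from cells kept for 18 h or 24 h without dox, so an effect of time in culture cannot be told apart either. The treatment note in the labels names other times, 24 h and 48 h, and the 18 h and 24 h of the sample titles were used. The labels number the replicates, and the study describes them as separate biological experiments.

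bHLH proteins bind DNA as dimers at a short motif called the E-box. E proteins such as E2A are made in most cells and are the usual partners of tissue bHLH factors, while Id proteins, which lack the basic region that contacts DNA, hold E proteins in inactive dimers. Forcing E47 into a homodimer keeps it paired with itself. The comparison asks whether genes for the lineage partners of E2A in mesoderm, blood and muscle change at the RNA level when the homodimer is made in pluripotent cells.

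Of the 10 genes, 5 had a mean of at least 0.1 FPKM over the 9 libraries and were tested, namely Tcf15, Msc, Mesp2, Tal1 and Scx. No member was called in any comparison, where a call needs an adjusted p of at most 0.05 and a log2 fold-change of at least 1 in size. Tcf15, the member with the highest level, fell to 0.556 of its 0 h level at 24 h, and Msc rose to 1.79 times its 0 h level, both short of the minimum fold. Lyl1, Mesp1, Msgn1, Myf5 and Myod1 lay at 0 to 7 reads per library at every time.

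Reads on genes numbered from 22028363 to 26471569 per library, and log2 values of replicates correlated at r=0.975 to 0.980 across genes. Reads on Tcf3 rose from 3383–3967 per library before dox to 10419–10789 after 18 h and 9650–11918 after 24 h. In FPKM this was 39.1±1.80, 110.1±5.52 and 102.0±7.55 (mean±s.d., n=3), and the reads of the endogenous gene and the construct cannot be told apart. All 10 genes of the pluripotency list were detected, at means of 3.35 FPKM (Tfcp2l1 at 18 h) or more at each time. They went both ways by 24 h (Tdgf1, which was called lower, is given with the lists), with Pou5f1 going from 371.3 to 247.5 FPKM (limma adjusted p=0.0220), Nanog from 40.6 to 73.4 FPKM (limma adjusted p=0.00735) and Sox2 from 88.9 to 87.8 FPKM (limma adjusted p=0.929).

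RefSeq promoter windows on GRCm38.p6, which run from 250 bases before to 50 after a start site, were held for 6 of the 10 members, in 7 windows. They are shown for Tal1 and Lyl1, the blood pair, and for Mesp1 and Mesp2, the neighbouring pair on chromosome 7, because E47 dimers bind E-boxes and each pair sets a gene with reads beside one with almost none. Capitals mark every match to CANNTG, a motif that reads the same on both strands, and each sequence is written 5′ to 3′ on the strand of its gene.
Tal1 (chr4:115056176-115056475, plus strand): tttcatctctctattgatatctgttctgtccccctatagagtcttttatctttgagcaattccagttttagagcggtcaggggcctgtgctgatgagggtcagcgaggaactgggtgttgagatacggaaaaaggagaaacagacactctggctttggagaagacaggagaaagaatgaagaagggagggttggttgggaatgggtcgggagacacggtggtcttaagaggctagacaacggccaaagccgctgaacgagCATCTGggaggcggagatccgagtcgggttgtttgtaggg
Lyl1 (chr8:84701207-84701506, plus strand): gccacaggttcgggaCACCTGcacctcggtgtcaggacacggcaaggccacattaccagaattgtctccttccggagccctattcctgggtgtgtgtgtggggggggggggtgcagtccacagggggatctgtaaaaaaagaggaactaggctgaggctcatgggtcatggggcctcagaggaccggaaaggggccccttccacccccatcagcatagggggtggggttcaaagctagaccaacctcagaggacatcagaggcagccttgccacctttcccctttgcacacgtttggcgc
Mesp1 (chr7:79793541-79793840, minus strand): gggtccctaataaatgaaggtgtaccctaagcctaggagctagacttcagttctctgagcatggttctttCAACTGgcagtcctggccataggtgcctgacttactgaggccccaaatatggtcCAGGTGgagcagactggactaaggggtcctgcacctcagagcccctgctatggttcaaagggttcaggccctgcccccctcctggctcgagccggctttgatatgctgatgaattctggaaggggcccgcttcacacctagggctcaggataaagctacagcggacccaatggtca
Mesp2 (chr7:79810477-79810776, plus strand): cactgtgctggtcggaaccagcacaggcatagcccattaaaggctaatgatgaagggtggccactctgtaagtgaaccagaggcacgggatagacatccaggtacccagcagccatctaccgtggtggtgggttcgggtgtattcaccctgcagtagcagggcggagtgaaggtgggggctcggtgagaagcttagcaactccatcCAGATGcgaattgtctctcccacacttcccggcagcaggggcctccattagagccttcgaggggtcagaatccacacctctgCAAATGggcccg

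The Mesp1 window holds CAGGTG at 126 bases before the start site, and the Lyl1 window holds its reverse complement CACCTG at 235 bases before. In either orientation CAGGTG lies in 20.2% of all 32851 windows, and CANNTG, of which it is one form, in 72.3%. CAGCTG, another form of CANNTG, lies in 16.3% of windows and in none of the 7 windows of the members. A further Tal1 window and the Myf5 window hold no CANNTG, and the Msgn1 window holds 1. Such a match describes the letters and not a bound site. The windows with CAGGTG belong to genes that stayed at 0 to 3 reads per library.

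Tcf15 (paraxis) is a factor of somite epithelium (GRCm38 chr2:152143561-152149097, plus strand, 2 exons in GENCODE M21, gene ENSMUSG00000068079). According to the paper's introduction, Id1 indirectly inhibits this factor, which appears to act more broadly in priming for differentiation. In replicates 1, 2 and 3 the level of Tcf15 was 29.8, 28.7 and 26.5 FPKM before dox, 19.7, 15.8 and 12.6 FPKM after 18 h, and 17.9, 16.7 and 12.7 FPKM after 24 h. Every dox library lay below every 0 h library, and in each group replicate 1 was the highest and replicate 3 the lowest. Behind these values stood 564 to 697 reads before dox, 298 to 442 after 18 h and 338 to 446 after 24 h.

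Tcf15 averaged 28.3±1.71 FPKM before dox, 16.0±3.58 FPKM after 18 h and 15.8±2.74 FPKM after 24 h (mean±s.d., n=3). As a difference in log2(FPKM+0.1), it fell by 0.84 at 18 h (s.e. 0.168, limma adjusted p=0.0193) and by 0.86 at 24 h (s.e. 0.168, limma adjusted p=0.0146). Among all 17951 genes tested, an adjusted p of at most 0.05 with a lower level was reached by 3.72% at 18 h and 5.11% at 24 h, and libraries entirely below those at 0 h were found for 13.7% and 14.6%. Within replicate numbers the 18 h level was 33.9%, 45.1% and 52.5% lower than at 0 h in replicates 1, 2 and 3, and the 24 h level 39.9%, 41.9% and 52.2% lower. In bulk RNA, fewer cells with Tcf15 RNA and less Tcf15 RNA per cell cannot be told apart.

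With the replicate number as a block, Tcf15 passed at both times (limma adjusted p=0.00165 and 0.00121). In that fit 1929 and 2243 of 17951 genes fell at an adjusted p of at most 0.05. Fits with a library left out had no block. The fall of Tcf15 lost its adjusted p at 18 h without 0 h replicate 1 (0.0681), 18 h replicate 2 (0.0694) or 18 h replicate 3 (0.0621), by limma. At 24 h it was lost without 0 h replicate 1 (limma adjusted p=0.0545) or 24 h replicate 3 (0.0523). Without 18 h replicate 1 the log2 fold-change at 18 h was −1.002 (limma adjusted p=0.0140) and Tcf15 was called. Between 18 h and 24 h it differed by −0.02, with a 95% interval of −0.39 to 0.36.

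**Figure D1:**
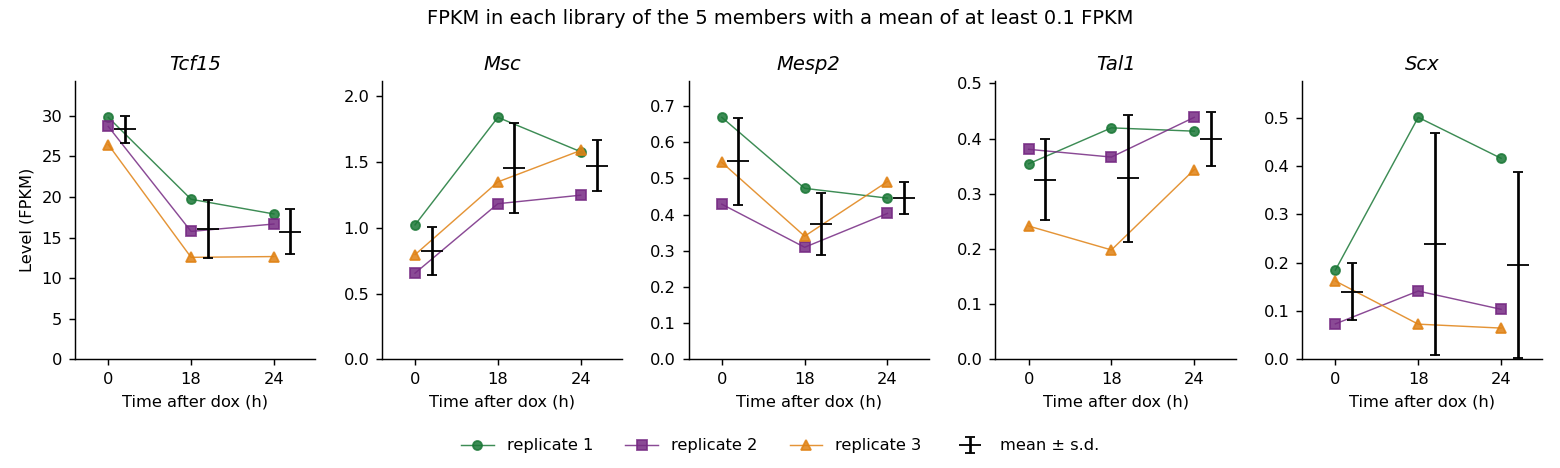
FPKM of the 5 tested members in each library (vertical axes, linear and starting at 0) against time after dox in h (horizontal axes), with lines joining libraries of one replicate number and black bars for mean±s.d. (n=3). All 6 dox libraries lie below the 0 h libraries for Tcf15 and above them for Msc, groups overlap for Mesp2, Tal1 and Scx, and Scx is high in replicate 1 after dox.

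Msc (musculin) is a bHLH repressor made in precursors of head muscle (chr1:14753346-14755992, minus strand, 2 exons, ENSMUSG00000025930). Its level was 1.02, 0.655 and 0.795 FPKM in replicates 1 to 3 before dox, 1.84, 1.18 and 1.35 FPKM after 18 h, and 1.58, 1.25 and 1.59 FPKM after 24 h. All dox libraries lay above all 0 h libraries, as was so for 14.4% of genes tested at 18 h and 16.7% at 24 h. These levels rest on 62, 40 and 44 reads before dox, 107, 75 and 83 after 18 h, and 102, 81 and 110 after 24 h.

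Msc averaged 0.823±0.185 FPKM before dox, 1.46±0.341 FPKM after 18 h and 1.47±0.193 FPKM after 24 h (n=3). The log2 fold-change was 0.75 at 18 h (s.e. 0.207), which did not pass the test (limma adjusted p=0.0573). At 24 h Msc rose by 0.78 on the log2 scale (s.e. 0.207, limma adjusted p=0.0426), where 6.52% of all genes rose at an adjusted p of at most 0.05. At 18 h the share of genes that rose was 4.27%. With the replicate number as a block, Msc passed at both times (limma adjusted p=0.00649 and 0.00455), and in that fit 10.8% and 13.6% of all genes rose.

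The adjusted p of Msc at 24 h rose above 0.05 on leaving out any library but 0 h replicate 1 or 18 h replicate 1. In those 7 fits it reached up to 0.137 by limma, and the log2 fold-change lay between 0.64 and 0.88. Msc shares 539 bases of exon with Gm9947 on the opposite strand, which was at 0.0157 FPKM at 0 h and 0.0183 FPKM at 24 h. How strand was used in the counting is not given in the sources used here. The fibroblast list (Col1a1, Col1a2, Col3a1, Dcn, Lum, Postn, Pdgfrb, Thy1, Fn1 and Vim), for cells a culture of ESCs may hold, summed to 102.6–121.6 FPKM at 0 h and 107.3–130.4 FPKM at 24 h. Of its 10 genes, 8 were tested and 1, the receptor gene Pdgfrb, was called. Pdgfrb was at 0.960 FPKM at 0 h and 2.09 FPKM at 24 h. Its call was lost without 0 h replicate 1, 24 h replicate 2 or 24 h replicate 3. It was also lost with a pseudocount of 1 and when only the compared time points were fitted. Thy1 went the other way, from 2.08 to 1.21 FPKM (log2 fold-change −0.74, limma adjusted p=0.0494), under the minimum fold. Fn1 (60.3 FPKM) and Vim (40.2 FPKM) were the largest parts of the sum at 0 h. Lum and Postn stayed at or below 0.151 FPKM in every library. The paper's methods describe ESCs kept on gelatinised flasks and name no feeder cells. The part of fibroblasts in the level of Msc was not tested.

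Mesp2 sets the boundaries between forming somites (chr7:79810727-79813439, plus strand, 2 exons, ENSMUSG00000030543). It had 31, 20 and 23 reads in replicates 1 to 3 before dox, 21, 15 and 16 after 18 h, and 22, 20 and 26 after 24 h. In FPKM this was 0.547±0.120, 0.374±0.087 and 0.447±0.044 (mean±s.d., n=3), and the groups overlapped. At 18 h it was lower in 3 of 3 replicate numbers, and the log2 fold-change was −0.45 (s.e. 0.218, limma adjusted p=0.238, 95% interval −0.94 to 0.04). At 24 h the value was −0.23 (limma adjusted p=0.528, 95% interval −0.72 to 0.26). With the replicate block the 18 h interval of Mesp2 was −0.86 to −0.039 (limma adjusted p=0.111).

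Mesp1 marks the earliest cardiac progenitors and lies 16939 bases from Mesp2, transcribed away from it (chr7:79792241-79793788, minus strand, 2 exons, ENSMUSG00000030544). It had 1 read in each library before dox, 1, 2 and 0 reads after 18 h, and 1, 2 and 1 reads after 24 h. The 2 promoters printed above therefore belong to a gene at 15 to 31 reads per library and to one at 0 to 2. Anpep, on the far side of Mesp2, went from 3.26 FPKM before dox to 2.35 FPKM after 18 h and 2.39 FPKM after 24 h, and its 24 h log2 fold-change was −0.43 (limma adjusted p=0.0306). Wdr93, the nearest gene with reads on the other side, was at 0.513 FPKM at 0 h and 0.418 FPKM at 24 h (limma adjusted p=0.660).

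Msgn1, a regulator of presomitic mesoderm, had no read in any of the 9 libraries (chr12:11208360-11208972, minus strand, 1 exon, ENSMUSG00000047002). A count of 0 allows up to 3 reads over the libraries of a time, or 0.0703 FPKM before dox, 0.0680 FPKM after 18 h and 0.0626 FPKM after 24 h, for counting error only. Its window above with a single CANNTG thus belongs to a gene that was not detectable at this depth.

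Tal1 is required for the first blood cells (chr4:115056426-115071755, plus strand, 7 merged exons, ENSMUSG00000028717). It had 37, 40 and 23 reads before dox, 42, 40 and 21 after 18 h, and 46, 49 and 41 after 24 h, in replicates 1 to 3. The levels were 0.325±0.074, 0.328±0.116 and 0.399±0.049 FPKM (n=3), and the groups overlapped, with replicate 3 the lowest at each time. Within replicate numbers Tal1 was higher in 1 of 3 at 18 h and in 3 of 3 at 24 h, with no share counted over all genes. The log2 fold-change was −0.02 at 18 h (95% interval −0.61 to 0.58, limma adjusted p=0.984) and 0.24 at 24 h (−0.36 to 0.84, limma adjusted p=0.593). These intervals leave room for a change of up to 0.84 on the log2 scale. Stil, upstream of Tal1, was at 5.92 FPKM at 0 h and 6.15 FPKM at 24 h, and Pdzk1ip1, downstream, at 0.214 and 0.128 FPKM, and neither passed the test.

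Lyl1, the close relative of Tal1 in blood, had 3, 0 and 0 reads before dox, 0, 0 and 2 after 18 h, and 1, 0 and 0 after 24 h (chr8:84701457-84704715, plus strand, 4 exons, ENSMUSG00000034041). Reads were therefore seen in 3 of the 9 libraries and in 1 library of each time. Its exons share 4 bases with Nfix on the opposite strand, which was itself at 0.0347 FPKM at 0 h and 0.0801 FPKM at 24 h.

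**Figure D2:**
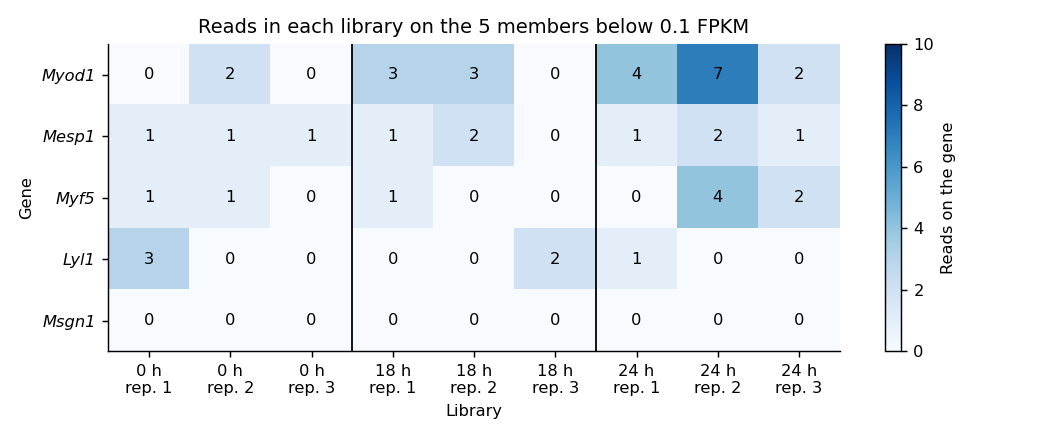
Reads on the 5 members with a mean below 0.1 FPKM (rows) in each of the 9 libraries (columns, grouped by time and split by black lines), with the colour scale and the printed digits both giving reads. Msgn1 is at 0 throughout, Lyl1, Mesp1 and Myf5 at 0 to 4 reads, and Myod1 at 0 to 7 reads with its highest library at 24 h.

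Myf5 and Myod1 commit cells to skeletal muscle. Myf5 (chr10:107482908-107486134, minus strand, 3 exons, ENSMUSG00000000435) had 1, 1 and 0 reads before dox, 1, 0 and 0 after 18 h, and 0, 4 and 2 after 24 h. Myod1 (chr7:46376474-46379099, plus strand, 3 exons, ENSMUSG00000009471) had 0, 2 and 0 reads before dox, 3, 3 and 0 after 18 h, and 4, 7 and 2 after 24 h. The 0 h and 24 h libraries of both genes overlapped, while within replicate numbers Myod1 was higher at 24 h in 3 of 3 and Myf5 in 2 of 3. The share of all genes that did so was not counted. Pooled over replicates, Myod1 had 13 reads at 24 h and 2 at 0 h, a ratio of 5.79 after scaling to library size with a 95% counting interval of 1.31 to 52.8 (exact binomial). That interval holds counting error only. In the count tests on the recovered reads, which could include Myod1, it did not pass at 24 h (log2 fold-change 2.34, edgeR adjusted p=0.180, and with the replicate block 2.43, edgeR adjusted p=0.0716). Even at 24 h its level was 0.091±0.054 FPKM (n=3).

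Scx (scleraxis) marks tendon progenitors (chr15:76457452-76459458, plus strand, ENSMUSG00000034161). Its deposited FPKM and reads imply 1136 bases of exon, while the merged exons of GENCODE M21 span 2007 bases, so the model behind its counts was another one. It had 5, 2 and 4 reads before dox, 13, 4 and 2 after 18 h, and 12, 3 and 2 after 24 h. Replicate 1 held 30 of the 47 reads, and replicates 2 and 3 together had 6, 6 and 5 reads at the 3 times. The log2 fold-change was 0.32 at 18 h (s.e. 0.552, limma adjusted p=0.757) and 0.14 at 24 h (limma adjusted p=0.898). Without replicate 1 of the later time it was −0.20 at 18 h and −0.36 at 24 h. The fibroblast list summed to 102.6, 111.3 and 107.3 FPKM in the replicate 1 libraries, the lowest sum at each time, with its members going both ways (Col1a2 lowest and Fn1 highest in replicate 1 at each time). Scx lies within Bop1, a gene of the opposite strand at 71.4 FPKM at 0 h and 58.5 FPKM at 24 h, and in GENCODE M21 the pair share no exon.

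At 0 h the order of levels was Tcf15, Msc, Mesp2, Tal1, Scx, Mesp1, Lyl1, Myod1, Myf5 and Msgn1. Tcf15 was above 87.5% of the 17936 genes with at least 0.1 FPKM at 0 h, and Msc above 31.8% of them. The ranges of Msc (0.655 to 1.02 FPKM) and Mesp2 (0.429 to 0.669 FPKM) overlapped, as did those of each pair of neighbours below Scx. Tal1 (0.242 to 0.381 FPKM) lay below every Mesp2 value at 0 h and above every Scx value. At 24 h Mesp2 (0.403 to 0.491 FPKM) and Tal1 (0.344 to 0.439 FPKM) overlapped, while Msc (1.25 to 1.59 FPKM) was above both.

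Other genes at the same loci were those that overlap a member and the closest on each side with a mean of at least 0.1 FPKM over all libraries, which lay up to 1635075 bases away (Ccdc59, from Myf5). Closer genes under that mean, such as Myf6 beside Myf5, were passed over. Of these 21 genes that are no members themselves, 19 were tested and none was called. Anpep and Abcc8, on the side of Myod1, fell at 18 h, and Anpep, Trmt1, on the side of Lyl1, and Bop1 at 24 h, by an adjusted p of at most 0.05 in limma alone. The genes on both sides of Tcf15 did not pass, with Srxn1 at 9.72 FPKM at 0 h and 8.12 FPKM at 24 h and Rps15a-ps7 at 5.68 and 3.85 FPKM. Nor did those taken for Msgn1 (Kcns3 and Gen1), Msc (Eya1 and Smt3h2-ps4), Myf5 (Ccdc59 and Ppp1r12a) and Scx (Mroh1 and Hsf1), the other one of Lyl1 (G430095P16Rik) or the other one of Myod1 (Sergef).

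By limma, 0 of the 5 tested members were called at 18 h compared with 0 h, where 1.33% of all genes were called higher and 0.724% lower. At 24 h 0 of 5 were called as well, where 2.07% of genes were called higher and 0.836% lower. Without the replicate block, 2 of the 5 members, Tcf15 and Msc, were under an unadjusted p of 0.05 by limma at each time. So were 25.4% of all genes at 18 h and 28.2% at 24 h. With the block there were 3 members at 18 h, Mesp2 being the other (limma adjusted p=0.111). The share of all genes under an unadjusted p of 0.05 was not counted in the block fit. By the adjusted p alone, 3870 of 17951 genes passed in that fit at 18 h. edgeR and DESeq2 on recovered reads also called 0 of the 6 members they could fit. Of 19210 genes, edgeR called 383 higher and 200 lower at 18 h, and 539 and 241 at 24 h. DESeq2 called 349 and 194 at 18 h, and 491 and 204 at 24 h. In 24 h compared with 18 h, limma called 0 of 5 members, and 0.0223% of all genes, while 0 members and 5.59% of genes were under an unadjusted p of 0.05. The median log2 fold-change of the 5 members was −0.02 at 18 h and 0.14 at 24 h, and that of all genes tested −0.0030 and 0.0040.

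**Figure D3:**
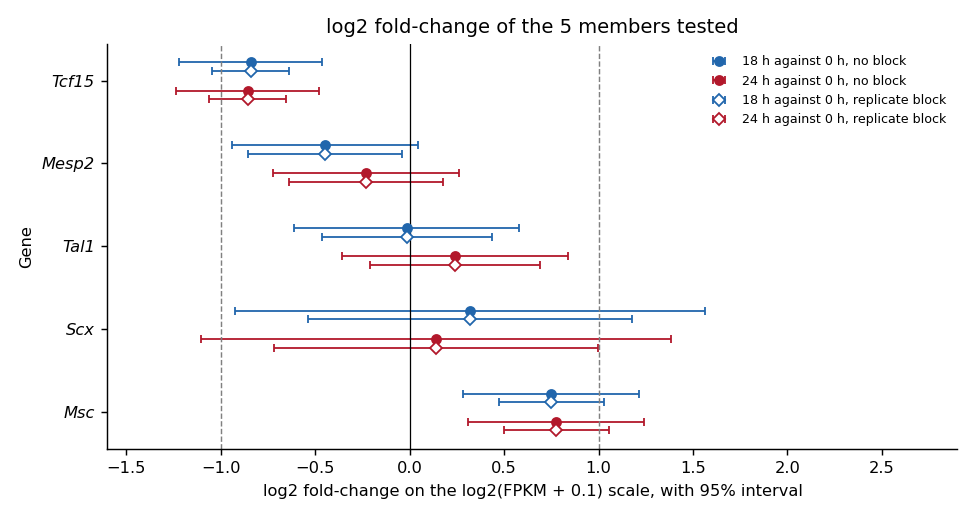
log2 fold-change of the 5 tested members against 0 h on the log2(FPKM+0.1) scale (horizontal axis) with 95% intervals, in blue for 18 h and red for 24 h, without (filled) and with (open) the replicate block. Tcf15 lies to the left of 0 and Msc to the right with intervals that exclude 0 in both fits, as does that of Mesp2, to the left, at 18 h with the block (−0.86 to −0.039), no point passes the dashed lines at −1 and 1, and Scx has the widest intervals.

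The other genes of the same families and lineages were taken as 8 lists, described by counts at 24 h compared with 0 h. Of 17 other tissue bHLH factors, 8 were tested, 3 were called higher and none lower, with a median log2 fold-change of 0.54. They were Hand1, of heart and trophoblast (1.22±0.385 to 11.6±0.764 FPKM, log2 fold-change 3.19), Atoh8 (0.046±0.043 to 0.577±0.142, 2.23) and Tal2, the third gene of the Tal1 and Lyl1 family (0.112±0.013 to 0.575±0.259, 1.61). Limma adjusted p values were 9.32e-05, 0.00223 and 0.0316. The call of Tal2 was kept in 3 of 9 fits with 1 library left out and lost without any 0 h library, 18 h replicate 2, 24 h replicate 1 or 24 h replicate 3 (limma adjusted p of up to 0.0919). The calls of Atoh8 and Tal2 were also lost with a pseudocount of 1, and that of Tal2 without the FPKM filter. Tal2 was thus called at 24 h where Tal1 was not, and the difference between the pair was not tested. The muscle factors Myog and Myf6 of this list stayed below 0.1 FPKM in every library, as did Myf5.

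Of the 7 E proteins and Id inhibitors, all tested, 5 were called higher at both times, Tcf3 and Id1 to Id4, with a median of 1.95 at 24 h. Id3 went from 14.1±4.06 to 257.2±23.4 FPKM (log2 fold-change 4.21, limma adjusted p=8.82e-06). Tcf12, another E protein, was at 3.20 FPKM at 0 h and 4.86 FPKM at 24 h, and its log2 fold-change of 0.59 was under the minimum (limma adjusted p=0.0175).

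Of 20 genes of somite and paraxial mesoderm, the tissue of Tcf15, Mesp2 and Msgn1, 12 were tested, 4 were called higher and 1 lower at 24 h (median 0.07). Higher were the Notch ligand genes Dll1 (1.10±0.212 to 3.85±0.661 FPKM) and Dll3 (2.52±0.625 to 9.99±1.63), the Notch modifier Lfng (7.16±1.06 to 19.2±0.593) and the somite homeobox gene Meox1 (0.063±0.038 to 0.425±0.081), with log2 fold-changes of 1.42 to 1.96 and limma adjusted p values of 0.00011 to 0.0088. Dll1, Dll3 and Lfng also act outside mesoderm, in neural progenitors among others. Ripply1, an antagonist of segmentation factors, was called lower (3.55±1.50 to 1.57±0.429 FPKM, log2 fold-change −1.09, limma adjusted p=0.0367), a call kept in 2 of 9 fits with a library left out, those without 0 h replicate 3 or 24 h replicate 1 (adjusted p of up to 0.126). The calls of Meox1 and Ripply1 were lost with a pseudocount of 1. That of Ripply1 was also lost without the FPKM filter, without the trend in eBayes, and when only the compared time points were fitted. Tbx6, which acts upstream of Mesp2 in the embryo, was at 0.469 FPKM at 0 h and 0.431 FPKM at 24 h.

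Of 15 genes of cardiac mesoderm, 10 were tested, and at 24 h Isl1, a progenitor factor, was called higher (0.043±0.028 to 0.303±0.135 FPKM, limma adjusted p=0.0227) and Myl7, a myosin light chain, lower (3.16±1.57 to 1.07±0.347 FPKM, limma adjusted p=0.0271). The call of Isl1 was lost without 0 h replicate 2 or 3 or 24 h replicate 1 or 2, and that of Myl7 without 0 h replicate 1 or 24 h replicate 2 or 3, with adjusted p values by limma of up to 0.0616 and 0.0999. Of 23 genes of blood and endothelium, 15 were tested and 2 were called higher. They were Gata2 (0.105±0.041 to 0.740±0.064 FPKM, log2 fold-change 2.05) and Cbfa2t3 (0.057±0.022 to 0.676±0.147, 2.29), with limma adjusted p values of 0.000942 and 0.00116. With a pseudocount of 1 all 4 calls, of Isl1, Myl7, Gata2 and Cbfa2t3, were lost. Those of Isl1 and Myl7 were also lost when only the compared time points were fitted, and that of Myl7 without the FPKM filter. The products of Gata2 and Cbfa2t3 are known to act in one complex with Tal1 in blood cells. Tal1 itself was at 0.325 and 0.399 FPKM. Gata1 was at 0.344 FPKM at 0 h and 0.168 FPKM at 24 h, and Runx1 at 0.302 and 0.213 FPKM. The list medians at 24 h were 0.02 for cardiac mesoderm and −0.04 for blood and endothelium.

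Of 25 genes of skeletal muscle and tendon, 13 were tested, and 3 were called higher at 24 h with none lower (median 0.31). With the replicate block, the embryonic myosin gene Myh3 was called lower as well (1.29±0.441 to 0.608±0.306 FPKM, log2 fold-change −1.01, limma adjusted p=0.00418, against 0.0771 without the block). The genes called higher were the cardiac actin gene Actc1 (0.791±0.040 to 1.81±0.498 FPKM), the fast troponin gene Tnnt3 (0.248±0.120 to 0.621±0.185) and Sox9 of cartilage and tendon precursors (0.040±0.043 to 0.248±0.117), with limma adjusted p values of 0.0209, 0.0481 and 0.0464. With 1 library left out the calls held in 5, 1 and 2 of 9 fits, with limma adjusted p values of up to 0.0763, 0.162 and 0.152. Actc1 was lost without 0 h replicate 1 or 2 or 24 h replicate 2 or 3, Tnnt3 without any library but 0 h replicate 2, and Sox9 without any but 0 h replicate 3 or 24 h replicate 1. At 18 h 2 were called higher. Tnnt3 was then at 1.13±0.170 FPKM (log2 fold-change 1.88, limma adjusted p=0.00823), a call kept in 9 of 9 fits with a library left out. The other was the skeletal actin gene Acta1 (6.81±1.46 to 14.0±2.18 FPKM, log2 fold-change 1.03, limma adjusted p=0.0218), and Acta1 was lost without 0 h replicate 1 or 3 or 18 h replicate 2 or 3 (adjusted p of up to 0.0851). The calls of Actc1, Tnnt3, Sox9 and Acta1 were lost with a pseudocount of 1. Over the alternatives that kept all libraries of the time points fitted, Tnnt3 at 24 h kept its call in 4 of 10 and Sox9 in 6 of 10. Both were also lost without the FPKM filter, with quantile normalization, and when only the compared time points were fitted. Tnmd, which Scx is known to activate in tendon, was listed at 0 in every library. Of the 10 pluripotency genes, all tested, 1 was called lower, Tdgf1 (130.6±12.1 to 47.5±4.38 FPKM, limma adjusted p=0.000115), and the median of that list was −0.21.

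**Figure D4:**
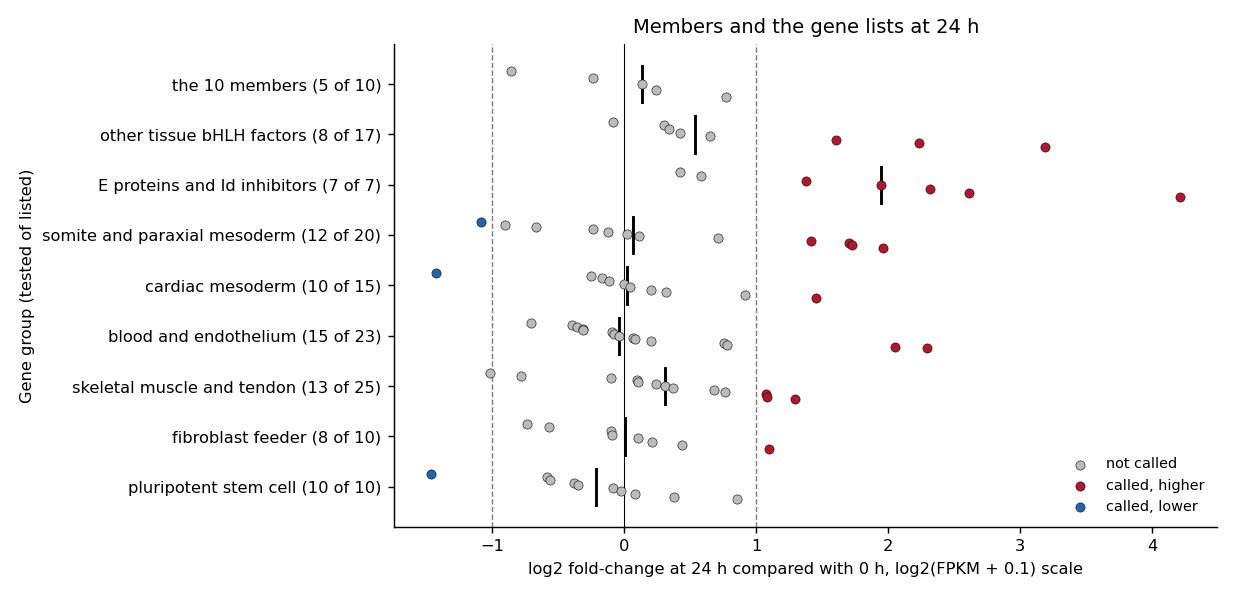
log2 fold-change at 24 h compared with 0 h on the log2(FPKM+0.1) scale (horizontal axis) of each tested gene in the members and the 8 lists (vertical axis, with tested of listed), coloured red or blue where called and grey where not, with a black bar at the median and dashed lines at −1 and 1. All 5 members are grey, while 3 of 8 other tissue bHLH factors and 5 of 7 E proteins and Id inhibitors are red.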

How the data were processed

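The authors made strand-specific polyadenylated RNA libraries and aligned reads with STAR to GRCm38, and the submitters' processing notes name cutadapt 1.9 and edgeR 3.16.5. They deposited FPKM for 47729 genes and, for a filtered set of 19210, a per-library signal (CPM scaled to an effective library size), with log2 fold changes and p-values of their own edgeR comparisons, which were not used here. Reads were recovered from the deposited signal by dividing by the worth of 1 read, and all values came out whole within 0.01. Reads of Lyl1, Mesp1, Myf5 and Msgn1, outside that set, come from FPKM and GENCODE M21 exon lengths.

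limma 3.58.1 (lmFit, eBayes with trend, R 4.3.3) was fitted to log2(FPKM+0.1) of all 9 libraries for the 17951 genes with a mean of at least 0.1 FPKM, with Benjamini–Hochberg adjustment over all of them. Fold-changes of low genes come out too small on that scale. The design foresaw edgeR had counts been deposited. edgeR 4.0.16 and DESeq2 1.42.0 on the recovered reads, other pseudocounts, filters and normalization, a replicate block and each library left out were alternatives. Same-numbered libraries deviated together (correlations of deviations from the time means 0.211 to 0.548 over 11893 genes, against −0.399 to 0.110 for other pairs), so the numbers pair the samples. Replicates differed by more than sampling noise (chi-square over degrees of freedom 5.79 to 17.8). An exact permutation test of 3 against 3 cannot go below 0.1, so none was used. Intervals are at 95% and cover counting error only where they rest on reads. The fits were tested on simulated data.

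The members and lists were chosen with earlier results of these data known. Named are all members, genes that overlap them, the closest on each side with a mean of at least 0.1 FPKM, Tcf3, and list genes called in a comparison with 0 h, at most 5 per list by size at 24 h. Other genes named from the lists (Pou5f1, Nanog, Sox2, Tfcp2l1, Tcf12, Tbx6, Gata1, Runx1, Myog, Myf6, Tnmd, Myh3, Col1a2, Fn1, Lum and Postn) were added after their values were seen. So were Thy1 and Vim. Promoter sequences are RefSeq's.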

Additional observations from a re-analysis of the deposited data

How the results depend on the processing

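The count of members called was 0 in every comparison under all alternatives with both thresholds, except that it was 1, Tcf15, at 18 h without 18 h replicate 1. Leaving out a library gave 0 to 1 called members at 18 h, and 0 to 0 at 24 h and at 24 h compared with 18 h. With no minimum fold-change there was 1 member at 18 h, where 4.27% of all genes rose and 3.72% fell by limma. There were then 2 at 24 h, where 6.52% of all genes rose and 5.11% fell. With the replicate block, the paired fit, 0 members were called, and it changed the side of the adjusted p only for Msc at 18 h (0.00649) among the members. Over the 11 alternatives that kept all libraries of the time points fitted, Tcf15 ranged from −0.84 to −0.80 at 18 h and from −0.86 to −0.82 at 24 h, and passed in all 11. Msc ranged from 0.43 to 0.82 and passed in 5 of 11 at 18 h, and from 0.44 to 0.84 and passed in 8 of 11 at 24 h, with the lowest values at a pseudocount of 1. Tal1 at 18 h lay so near 0 that its sign changed with a pseudocount of 1 (0.00060), edgeR (0.0035) and DESeq2 (0.0013), and on leaving out a library its range was −0.17 to 0.23. Scx ranged from −0.20 to 0.70 at 18 h and from −0.36 to 0.47 at 24 h when 1 library was left out. Of the list genes called at 24 h, the E proteins and Id inhibitors, Hand1, Atoh8, Dll1, Dll3, Lfng, Meox1, Gata2, Cbfa2t3 and Tdgf1 kept their call in 9 of 9 fits with a library left out. With a pseudocount of 1, the calls of genes that had under 1 FPKM at 0 h, Atoh8, Meox1, Gata2 and Cbfa2t3 among them, were lost, as were those of Ripply1 and Myl7. The causes were not tested. Below about 0.1 FPKM, with 0 to 7 reads per library, depth limits what can be said of Lyl1, Mesp1, Msgn1, Myf5 and Myod1.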
